A study of Mus musculus with 6 samples.

Results

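Messenger RNA of 10 genes that mark T cells and natural killer (NK) cells was followed across 6 bulk RNA sequencing libraries of mouse aortic root. The genes were chosen by name, with earlier results of these data known. They were Cd3d, Cd3e and Cd3g of the T cell receptor complex and the co-receptor genes Cd4, Cd8a and Cd8b1. The others were the cytotoxic genes Gzma, Gzmb, Nkg7 and Prf1. All 10 were found among the 23420 gene symbols of the deposited count table, and all 10 were among the 15096 genes with enough counts to be tested. Of the libraries, 3 were labelled Sost-/- (KO 1 to KO 3, described as double knockout of Sost) and 3 were labelled Sost+/+ (WT 1 to WT 3, wild type). Both groups were on the C57Bl6/J background, ate standard chow until 4 months of age and then a high-cholesterol diet for 8 months, and were taken at 12 months. The labels give neither how the allele was made nor which animal a root came from, so p-values measure only the spread between these samples. The comparison addresses how immune cell transcripts of the root differ with the Sost genotype in a diet model of calcific valve disease.

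The T cell receptor recognises peptides presented by other cells, and its CD3 chains pass the signal into the cell. CD4 marks helper and regulatory T cells, and CD8, a dimer of an alpha and a beta chain, marks cytotoxic T cells. Cytotoxic T cells and NK cells kill by releasing perforin and granzymes from granules. In arteries and valves exposed to high cholesterol, T cells are a known population beside macrophages.

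Total counts per library were between 38870673 and 41803775 with the label Sost-/- and between 37023586 and 48172863 with the label Sost+/+. Sost itself went against the labels, with 2284, 1063 and 513 counts in KO 1 to KO 3, against 354, 621 and 274 counts in WT 1 to WT 3, so directions given here follow the labels and not a verified loss of the transcript. The reads may or may not stem from sequence that the allele retains, which a count for the whole gene does not resolve. The summed level of 10 smooth muscle markers was 4055 to 6200 CPM (counts per 1000000 counts of a library, scaled by TMM, an edgeR correction for library composition) in libraries labelled Sost-/- and 1242 to 2639 CPM in libraries labelled Sost+/+. That of 10 cardiomyocyte markers was 51082 to 66310 CPM with the label Sost-/- and 78718 to 85740 CPM with the label Sost+/+. The part of these tissue markers in the results below was not tested.

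None of the 10 T and NK cell genes passed the test between the groups, while the estimate of each was lower in the libraries labelled Sost-/-. Each gene was tested by the quasi-likelihood method of edgeR, with p-values adjusted by Benjamini and Hochberg across the 15096 genes and a threshold of 0.05. This called 385 genes, 2.55% of those tested, of which 329 were higher (2.18%) and 56 lower (0.371%). Adjusted p-values of the 10 genes by edgeR were between 0.125 and 0.709. At an unadjusted p under 0.05, 5 of the 10 were lower (Cd4, Cd8a, Cd8b1, Gzmb and Nkg7), against 8.62% of all tested genes that were lower at that level. Most of the 10 genes moved together between libraries, Gzma and Prf1 less closely, and all were chosen with earlier results known. These shares therefore do not test the set. DESeq2 called 0 of the 7 to which it gave an adjusted p, where it called 8.31% of all such genes, 2.99% as lower. It gave none to the other 3, Gzma, Gzmb and Prf1. The median log2 fold change of the 10 genes was -0.72, and that of all tested genes was 0.01. Of all tested genes, 48.7% had an estimate below 0. In bulk tissue, fewer cells of a type and less RNA per cell cannot be told apart.

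**Figure D1:**
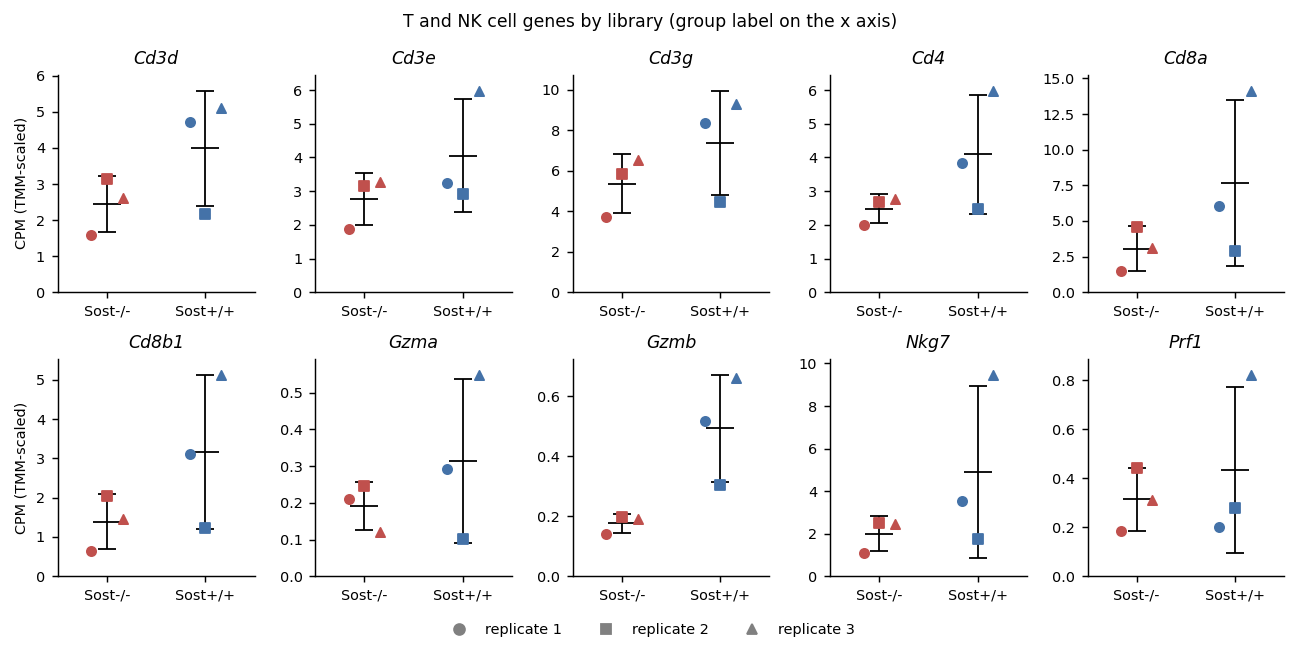
CPM of each of the 10 genes (y axis, TMM-scaled, from 0) in libraries labelled Sost-/- and Sost+/+ (x axis). Each point is 1 library with its replicate shown by shape, and bars are the mean and SD of 3 libraries. Replicate 3 of Sost+/+ is the highest point in each of the 10 panels, and only for Gzmb do the groups not overlap.

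The CD3 genes had estimates closer to 0 than the CD8 genes, while those of Cd3d and Cd4 were nearly equal. Differences between genes were not tested. Cd3g, which encodes the gamma chain, was at 3.71, 5.82 and 6.52 CPM in KO 1 to KO 3, against 8.37, 4.45 and 9.31 CPM in WT 1 to WT 3. WT 2 lay below KO 2 and KO 3, so the groups overlapped. Cd3g averaged 5.35 ± 1.46 CPM in libraries labelled Sost-/- and 7.37 ± 2.58 CPM in those labelled Sost+/+ (SD, n = 3 each), a log2 fold change of -0.46 (SE 0.29, 95% interval -1.12 to 0.19, edgeR adjusted p = 0.404). Cd3d, the delta chain gene, was at 1.59, 3.13 and 2.60 CPM in KO 1 to KO 3, against 4.71, 2.16 and 5.11 CPM in WT 1 to WT 3. Here too WT 2 lay within the range of the libraries labelled Sost-/-, and the log2 fold change was -0.71 (SE 0.35, 95% interval -1.50 to 0.08, edgeR adjusted p = 0.292). Cd3e, which encodes the epsilon chain that pairs with both others, was at 1.87, 3.16 and 3.27 CPM in KO 1 to KO 3, against 3.25, 2.92 and 5.98 CPM in WT 1 to WT 3. For Cd3e it was WT 3 alone that stood above the libraries labelled Sost-/-, and the log2 fold change was -0.55 (SE 0.32, edgeR adjusted p = 0.367).

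The 3 CD3 genes lie side by side on chromosome 9 within 40.1 kb, from 44969572 to 45009627 in GENCODE M21 (GRCm38, the assembly of mm10). Cd3g is on the minus strand and Cd3d on the plus strand, and their starts are 1.36 kb apart. Gene models overlap only Cd3e, and neither of those models is in the count table. The 250 bases before each start (RefSeq, GRCm38.p6) are shown for Cd3g and Cd3d because these neighbours start in opposite directions and had WT 3 highest, WT 1 next and KO 1 lowest alike. Capitals mark an E-box (CAGGTG or its reverse complement CACCTG) or an ETS-type motif (AGGAAG or CTTCCT), searched on both strands, and the marked motifs do not overlap.
Cd3g, chr9:44980432-44980681, minus strand: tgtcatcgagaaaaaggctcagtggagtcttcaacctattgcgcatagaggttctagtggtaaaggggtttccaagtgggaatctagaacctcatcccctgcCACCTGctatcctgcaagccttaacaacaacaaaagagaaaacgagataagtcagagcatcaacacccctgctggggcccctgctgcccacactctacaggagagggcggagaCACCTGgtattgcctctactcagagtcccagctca
Cd3d, chr9:44981536-44981785, plus strand: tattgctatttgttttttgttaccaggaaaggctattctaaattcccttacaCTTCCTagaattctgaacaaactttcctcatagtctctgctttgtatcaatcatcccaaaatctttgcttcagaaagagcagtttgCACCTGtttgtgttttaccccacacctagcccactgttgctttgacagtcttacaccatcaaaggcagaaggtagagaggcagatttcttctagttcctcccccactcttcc
The E-box letters occurred 2 times before Cd3g and 1 time before Cd3d. They were present in 17.2% of all 32851 RefSeq windows of this length, and the ETS letters in 29.5%. Of the 10 genes, 8 had a window, and 4 of these 8 held the E-box and 4 the ETS letters. Both motifs were chosen after these sequences were read, so the shares cannot test whether the letters are enriched.

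Of the co-receptor genes, the CD8 genes had larger negative estimates than Cd4 and varied more between libraries. Cd4 was at 1.99, 2.69 and 2.77 CPM in KO 1 to KO 3, against 3.83, 2.47 and 5.98 CPM in WT 1 to WT 3. Only WT 2 fell among the libraries labelled Sost-/-, below KO 2 and KO 3. The log2 fold change of Cd4 was -0.72 (SE 0.31, 95% interval -1.42 to -0.02, edgeR adjusted p = 0.233). Cd8a, the alpha chain gene that some dendritic cells and NK-like lymphocytes of the mouse also use, was at 1.47, 4.59 and 3.10 CPM in KO 1 to KO 3, against 6.03, 2.87 and 14.1 CPM in WT 1 to WT 3. The highest of the Sost+/+ libraries was 4.92 times the lowest, and their SD exceeded the difference between the group means, which were 3.06 ± 1.56 CPM with the label Sost-/- and 7.68 ± 5.81 CPM with the label Sost+/+ (SD, n = 3 each). The log2 fold change of Cd8a was -1.33 (SE 0.55, 95% interval -2.57 to -0.09, edgeR adjusted p = 0.219). Cd8b1, the beta chain gene that marks conventional CD8 T cells more strictly, was at 0.654, 2.05 and 1.46 CPM in KO 1 to KO 3, against 3.12, 1.22 and 5.13 CPM in WT 1 to WT 3. Its order of libraries matched that of Cd8a, and its log2 fold change was -1.19 (SE 0.52, 95% interval -2.36 to -0.01, edgeR adjusted p = 0.243). Cd8b1 and Cd8a are 35.9 kb apart on chromosome 6.

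Counts of Cd8b1 per count of Cd8a stayed between 0.444 and 0.469 in libraries labelled Sost-/- and between 0.363 and 0.517 in those labelled Sost+/+. Counts of Cd8a per count of Cd4 were 0.741, 1.71 and 1.12 in KO 1 to KO 3, against 1.57, 1.17 and 2.36 in WT 1 to WT 3. The groups overlapped in both ratios.

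Among the cytotoxic genes, Nkg7 was by far the most abundant and Gzmb the one whose groups did not overlap. Nkg7, a granule membrane protein gene shared by NK cells and cytotoxic T cells, was at 1.07, 2.49 and 2.46 CPM in KO 1 to KO 3, against 3.52, 1.73 and 9.47 CPM in WT 1 to WT 3. WT 3 was 5.48 times WT 2, while WT 2 lay below KO 2 and KO 3. Its log2 fold change was -1.28 (SE 0.56, 95% interval -2.55 to -0.02, edgeR adjusted p = 0.239). Gzmb, which encodes granzyme B, a protease that starts cell death in targets, had 6, 8 and 8 counts in KO 1 to KO 3, against 23, 12 and 24 counts in WT 1 to WT 3. Each Sost-/- library lay below each Sost+/+ library, as did 11.1% of all tested genes, and 25.4% had no overlap in either direction. Gzmb averaged 0.176 ± 0.0313 CPM with the label Sost-/- and 0.493 ± 0.178 CPM with the label Sost+/+ (SD, n = 3 each), a log2 fold change of -1.47 (SE 0.45, 95% interval -2.49 to -0.45, edgeR adjusted p = 0.125). Exact Poisson intervals, which cover counting error only, were 3.45 to 15.8 for the 8 counts of KO 2 and 6.20 to 21.0 for the 12 counts of WT 2, so that these nearest libraries were not separated at this depth.

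The 250 bases before the RefSeq start of Gzmb (GRCm38.p6) are shown because it was the gene whose groups were apart. Capitals mark the RUNX-type letters TGTGGT (or ACCACA), searched on both strands.
Gzmb, chr14:56262335-56262584, minus strand: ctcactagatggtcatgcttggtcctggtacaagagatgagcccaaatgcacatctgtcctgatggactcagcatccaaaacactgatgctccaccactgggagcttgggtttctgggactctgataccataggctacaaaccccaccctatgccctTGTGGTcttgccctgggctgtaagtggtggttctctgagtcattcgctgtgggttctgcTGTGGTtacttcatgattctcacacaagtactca
The letters occurred 2 times before Gzmb. They were present in 14.0% of all 32851 windows and in 4 of the 8 windows of the T and NK cell genes, those of Nkg7, Prf1, Gzma and Gzmb. This motif too was chosen after the sequences were read, so the shares cannot test whether it is enriched.

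Gzma and Prf1 were too low for a firm statement in either direction. Gzma, which encodes granzyme A, had 9, 10 and 5 counts in KO 1 to KO 3, against 13, 4 and 20 counts in WT 1 to WT 3. Its lowest library was WT 2, the 1 gene of the 10 in which KO 1 was not lowest. Its log2 fold change was -0.69 (SE 0.62, 95% interval -2.09 to 0.72, edgeR adjusted p = 0.571). Prf1, the perforin gene, had 8, 18 and 13 counts in KO 1 to KO 3, against 9, 11 and 30 counts in WT 1 to WT 3. Only WT 3 stood above the libraries labelled Sost-/-, and the log2 fold change was -0.45 (SE 0.59, 95% interval -1.79 to 0.89, edgeR adjusted p = 0.709).

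**Figure D2:**
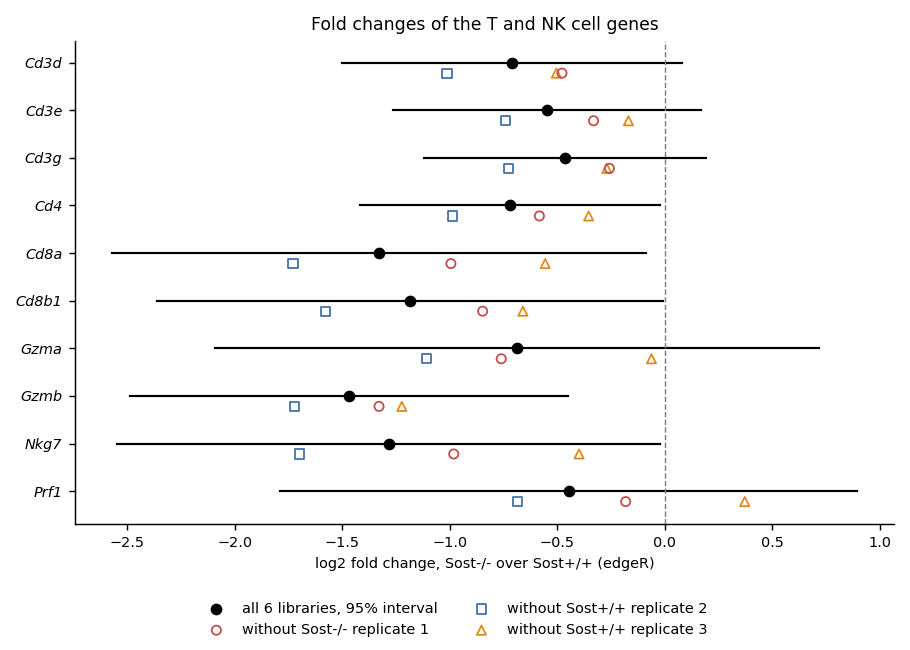
Log2 fold change of the libraries labelled Sost-/- over those labelled Sost+/+ (x axis) for each gene (y axis). Filled points and lines are the edgeR estimate and its 95% interval with all 6 libraries, and open symbols are estimates without 1 library. Estimates without replicate 2 of Sost+/+ lie left of the full estimate and those without replicate 3 lie right of it.

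The size of these estimates depended on which library was left out. WT 3 was the highest library for 10 of the 10 genes, against 18.1% of all tested genes, and KO 1 the lowest for 9, against 13.8% of all tested genes. WT 3 was also highest for 9 of 10 general leukocyte genes and 7 of 9 dendritic cell markers. Among further genes it was highest for 21 of 26 of T cell receptor signalling and 16 of 20 cytotoxic and NK genes. Macrophage and monocyte markers had 5 of 12 and mast cell markers 0 of 7. The peak in WT 3 was therefore not particular to the 10 genes. As most of the 10 genes moved together and all were chosen with earlier results known, these shares are descriptive and were not tested. Without WT 3 the estimates shrank to -0.56 for Cd8a, -0.40 for Nkg7 and -0.17 for Cd3e, and that of Prf1 turned to 0.37, while Gzmb stayed at -1.22. Without KO 1, the lowest library, Cd3g was at -0.26 and Cd3e at -0.33. Without WT 2 they were larger, with Cd8a at -1.73, Nkg7 at -1.70, Cd8b1 at -1.58 and Cd4 at -0.99. edgeR still called 0 of the 10 without WT 2, with adjusted p-values from 0.111 to 0.621. DESeq2 without WT 2, an alternative added after the values were seen, called 4 of the 10 lower: Nkg7 (adjusted p = 0.00647), Cd8b1 (adjusted p = 0.0123), Cd4 (adjusted p = 0.0219) and Cd3d (adjusted p = 0.0273), where 1.78% of all genes with an adjusted p were called lower. Both WT 1 and WT 3 stood above each library labelled Sost-/- for 8 of the 10 genes, against 16.5% of all tested genes. That count sets aside WT 2, which lay below at least 2 libraries labelled Sost-/- for 9 of the 10 genes. It therefore does not test a difference between the groups. The biological coefficient of variation that edgeR gave the 10 genes had a median of 0.344, against a median of 0.232 for the 4153 tested genes within the same range of mean CPM.

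Per length of exons, Nkg7 was highest and the granule enzymes lowest. Nkg7 was at 2.20 ± 0.885 CPM per kb with the label Sost-/- and 5.37 ± 4.43 CPM per kb with the label Sost+/+ (SD, n = 3 each). In libraries labelled Sost-/-, Cd3g (1.64 ± 0.446 CPM per kb), Cd3d (1.34 ± 0.432), Cd8b1 (0.935 ± 0.472), Cd8a (0.840 ± 0.429), Cd3e (0.678 ± 0.191) and Cd4 (0.615 ± 0.107) followed, and neighbours in this order differed by less than their SDs. In libraries labelled Sost+/+, Cd3g, Cd3d, Cd8b1 and Cd8a lay between 2.11 and 2.26 CPM per kb, with Cd4 at 1.02 ± 0.440 and Cd3e at 0.994 ± 0.412. The granzyme and perforin genes lay between 0.121 and 0.191 CPM per kb with the label Sost-/- and between 0.168 and 0.344 CPM per kb with the label Sost+/+.

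Summed over the 10 genes, KO 1 to KO 3 held 552, 1006 and 955 counts, against 1509, 728 and 2082 counts in WT 1 to WT 3. In CPM the sums were 20.2 ± 6.38 with the label Sost-/- and 36.5 ± 19.5 with the label Sost+/+ (SD, n = 3 each). Ptprc, which encodes CD45 of all leukocytes, was also highest in WT 3, at 29.3, 35.9 and 34.8 CPM in KO 1 to KO 3, against 41.8, 29.1 and 63.4 CPM in WT 1 to WT 3 (log2 fold change -0.42, SE 0.23, edgeR adjusted p = 0.345). It is 1 of 10 general leukocyte genes, of which 0 passed in edgeR, 0 had an unadjusted p under 0.05 and DESeq2 called 0. Of these 10 leukocyte genes 7 had an estimate below 0, with a median log2 fold change of -0.18, from -0.49 for Cd52 to 0.09 for Cd48, so Ptprc was among the lower ones. Set against 100 Ptprc counts, the 3 CD3 genes together had 24.5, 33.7 and 35.6 counts in KO 1 to KO 3, against 39.1, 32.8 and 32.2 counts in WT 1 to WT 3. Per Ptprc, WT 3 was no longer high and KO 1 was still lowest. All 10 genes together had 44.0, 69.1 and 65.5 counts per 100 Ptprc counts in KO 1 to KO 3, against 81.0, 63.7 and 90.2 in WT 1 to WT 3, and the groups overlapped through WT 2. The position of WT 3 depended on the gene in the denominator. Per 100 counts of all 10 leukocyte genes, a denominator added after the values were seen, the CD3 genes had 2.80, 3.62 and 3.81 counts in KO 1 to KO 3, against 5.16, 3.70 and 4.60 counts in WT 1 to WT 3, so that WT 1 and WT 3 both stood above each library labelled Sost-/-.

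**Figure D3:**
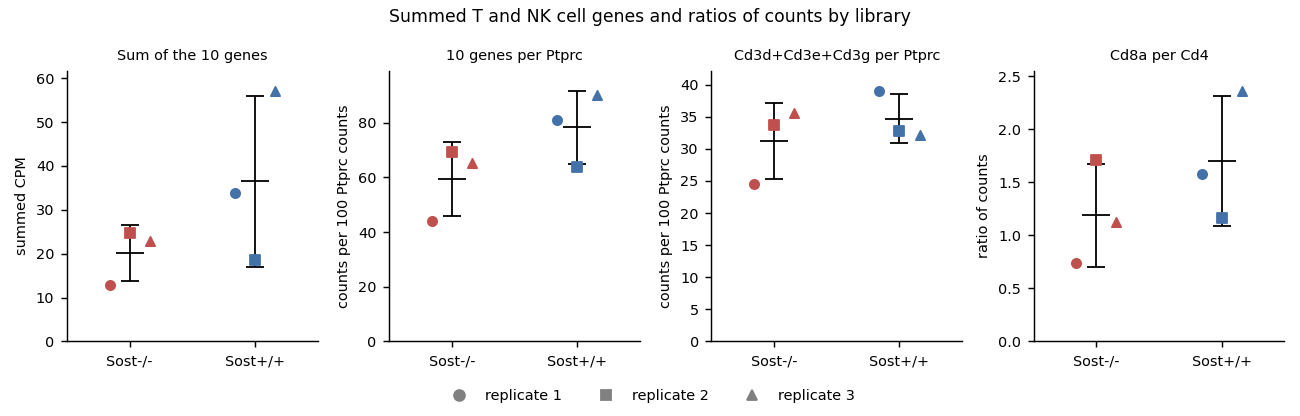
Summed CPM of the 10 genes, their counts per 100 Ptprc counts, the same for Cd3d, Cd3e and Cd3g alone, and the ratio of Cd8a to Cd4 counts (y axes, from 0) in libraries labelled Sost-/- and Sost+/+ (x axes). Points are libraries and bars are the mean and SD of 3. The sum reaches 57.2 CPM in replicate 3 of Sost+/+, whereas the CD3 genes per Ptprc are at 32.2 there, within the other group's range.

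Other genes of T cell receptor signalling gave a similar picture with smaller estimates. Of 26 tested genes of this list, 0 passed in edgeR in either direction and 22 had an estimate below 0, with a median log2 fold change of -0.25. At an unadjusted p under 0.05 there were 4 of the 26, against 20.2% of all tested genes in either direction, and DESeq2 called 0. Lck, the kinase that phosphorylates the CD3 chains, was at 1.87, 3.63 and 2.29 CPM in KO 1 to KO 3, against 4.80, 2.47 and 9.47 CPM in WT 1 to WT 3 (log2 fold change -1.10, SE 0.44, edgeR adjusted p = 0.209). Ubash3a, a negative regulator of receptor signalling, had a log2 fold change of -1.34 (SE 0.54). The receptor constant region genes were looked for, but no row of the count table could be matched to them, so they were not tested. The kinase gene Fyn, which many other cell types of the root also express, had an estimate of -0.27 (SE 0.10) at 53.5 to 66.8 CPM with the label Sost-/- and 72.2 to 74.7 CPM with the label Sost+/+.

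Of 20 tested cytotoxic and NK genes beyond the 10, 0 passed in edgeR, 18 had an estimate below 0, and the median was -0.67. Among all tested genes 48.7% had an estimate below 0. The chemokine gene Xcl1, made by activated CD8 T cells and NK cells, had 7, 41 and 20 counts in KO 1 to KO 3, against 71, 47 and 135 counts in WT 1 to WT 3 (log2 fold change -1.97, SE 0.61, edgeR adjusted p = 0.124). DESeq2 called 2 genes of the list lower, Xcl1 (adjusted p = 0.0136) and the protease gene Ctsw (adjusted p = 0.0311). It called 2.99% of all genes with an adjusted p as lower. In edgeR 5 of the 20 had an unadjusted p under 0.05, near the share of 20.2% of all tested genes in either direction. Both DESeq2 calls were lost without WT 1, WT 3, KO 1 or KO 3, where adjusted p ran from 0.0571 to 0.192 for Xcl1 and from 0.0966 to 0.308 for Ctsw. Ctsw, which encodes cathepsin W of cytotoxic lymphocytes (log2 fold change -1.34, SE 0.47), and the NK receptor gene Klre1 (-1.26, SE 0.49) came next by p among genes largely confined to such cells. The defining NK receptor gene Ncr1 had 2 to 5 counts in each library, too few to be tested, and Klrb1c had 4 to 14. The NK share of the signal from Nkg7 and the granzymes could therefore not be separated from that of CD8 T cells. Of 14 tested regulatory and helper T cell genes, 0 passed in edgeR and 12 had an estimate below 0, with a median of -0.35. An unadjusted p under 0.05 was found for 1 of the 14, Maf, which macrophages also express. This is a smaller share than the 20.2% of all tested genes. DESeq2 called Maf higher (adjusted p = 0.0120), but not without WT 2 (0.0839), KO 2 (0.0886) or KO 3 (0.115). Foxp3, the factor that defines regulatory T cells, was not tested, at 7, 1 and 4 counts in KO 1 to KO 3, against 6, 4 and 29 counts in WT 1 to WT 3.

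**Figure D4:**
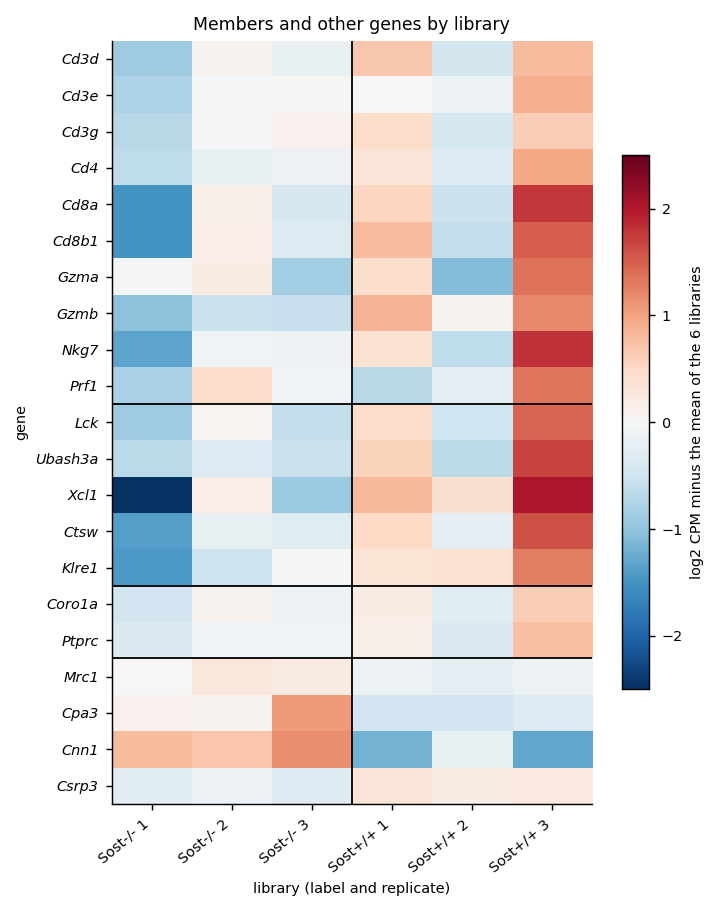
Log2 CPM of each gene minus its mean over the 6 libraries (colour, red high and blue low) for the 10 genes (top block), further T and NK cell genes, 2 leukocyte genes, and markers of macrophages (Mrc1), mast cells (Cpa3), smooth muscle (Cnn1) and heart muscle (Csrp3). Columns are libraries. Replicate 3 of Sost+/+ is reddest across the T and NK cell genes. Replicates 1 and 3 of Sost-/- and replicate 2 of Sost+/+ are mostly blue there, and replicate 2 of Sost-/- is mixed.

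Markers of other immune cells shared the peak in WT 3 and the lower estimates only in part. WT 3 was highest for 7 of 9 dendritic cell markers and 6 of 10 B and plasma cell markers. It was highest for 5 of 12 macrophage and monocyte markers and 0 of 7 mast cell markers, against 18.1% of all tested genes. Of 12 macrophage and monocyte markers 6 had an estimate below 0 (median 0.00), of 7 mast cell markers 1 (median 0.71) and of 9 dendritic cell markers 7 (median -0.44), and 0 of these passed in edgeR. Unadjusted p was under 0.05 for 2 macrophage, 5 mast cell and 2 dendritic cell markers, where 20.2% of all tested genes were, so the macrophage and dendritic cell counts lay near that share. DESeq2 called 1 macrophage marker (Mrc1) and 3 mast cell markers (Cma1, Cpa3 and Mcpt4) higher and 0 dendritic cell markers. The Mrc1 call was lost without any 1 library other than KO 1, and each mast cell call without 3 of the 6 libraries, WT 1 and KO 3 among them; the others were WT 3 for Cma1 and Mcpt4 and WT 2 for Cpa3. The summed macrophage markers were at 1007 to 1654 CPM with the label Sost-/- and at 1112 to 1323 CPM with the label Sost+/+. Of 10 tested B and plasma cell markers 9 had an estimate below 0, but the median was -0.11. Genes of immature thymocytes, which would mark thymus in the dissection, were at or near 0: Rag1 had at most 2 counts in a library, and Rag2, Dntt and Ptcra at most 1. The lymph node chemokine genes Ccl21a and Ccl19 were listed at 0 in all 6 libraries, as were 3648 of the 23420 genes of the count table. Whether the dissections held lymph node was not tested. Of the 12 lymph node and thymus genes, 2 had enough counts to be tested. Cxcl13, a chemokine gene of lymphoid follicles, had 90 to 239 counts with the label Sost-/- and 84 to 173 counts with the label Sost+/+ (log2 fold change 0.04, edgeR adjusted p = 0.964). Cd1d1, a lipid antigen presenting gene that other cells also express, had 273 to 486 counts with the label Sost-/- and 107 to 269 counts with the label Sost+/+ (log2 fold change 0.98, edgeR adjusted p = 0.125). DESeq2 called Cd1d1 higher (adjusted p = 0.0185), but not without WT 3 (0.0749), KO 2 (0.161) or KO 3 (0.222).

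Leaving out the 10 genes themselves, the tested genes most like their sum across the 6 libraries were, by Pearson correlation of log2 CPM, Havcr2 (r = 0.997), Ms4a4b (0.993), Cd69 (0.992), H2-DMb1 (0.992), H2-Aa (0.992) and Coro1a (0.988). These were picked as the highest of 13500 genes with a mean of at least 1 CPM, of which 195 exceeded 0.9, so the values describe 6 libraries and were not tested. Cd69 is an early activation gene of lymphocytes, and H2-DMb1 and H2-Aa belong to the class II machinery that presents antigen to CD4 T cells. H2-Aa was at 106, 168 and 175.0 CPM in KO 1 to KO 3, against 221, 146 and 392 CPM in WT 1 to WT 3 (log2 fold change -0.76, edgeR adjusted p = 0.230).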

How the data were processed

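Bulk RNA sequencing of 6 aortic roots was analysed, 3 libraries in each of 2 groups set by the genotype label. Replicate numbers follow accession order and pair nothing. The authors deposited raw read counts for each gene symbol and a second table of normalized signal, in which each library's counts are divided by a single factor. Those factors equal the size factors that DESeq2 gives for the counts. Per the submitters' processing notes, DRAGEN, HTSeq and DESeq2 were used with mm10. Tool versions, annotation and strand setting: not given in the sources used here, so reads of antisense genes may be mixed.

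Genes passed filterByExpr (minimum count 10, minimum total count 15), TMM factors were applied, and edgeR 4.0.16 in R 4.3.3 gave the tests. The SE is the absolute log2 fold change divided by the square root of F. Alternatives used DESeq2 1.42.0 and limma 3.58.1. The fit was first checked on simulated counts with known changes. Every simulated gene had a biological coefficient of variation of 0.141, below the median of 0.344 for the 10 genes. The check therefore does not show how well changes in these genes would be found. Library pairs differed beyond sampling noise (chi-square per degree of freedom 34.1 to 170). Exon lengths come from GENCODE M21. List genes were matched by symbol, else by RefSeq synonym.

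The 10 genes and the lists were chosen with earlier results of these data known, and the motifs after the sequences were read. Named are the 10 genes, list genes from the 4 of smallest p in a list, and the 6 genes most like the sum. Foxp3, Ncr1, Klrb1c, Rag1, Rag2, Dntt, Ptcra, Ccl21a and Ccl19 were named as cell type checks after their values were seen, and so was Cd48. The result of 1 list gene is not reported here by name.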

Additional observations from a re-analysis of the deposited data

How the results depend on the processing

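The count of 0 T and NK cell genes called was the same by edgeR with other size factors, with total counts only, without a filter on low counts and with a robust fit, by DESeq2, by limma-voom with and without library weights, and by edgeR without any 1 library. With 1 library left out, DESeq2, added after seeing the data, called 4 without WT 2 and 0 otherwise. DESeq2 gave Gzma, Gzmb and Prf1 no adjusted p with all libraries, nor without WT 1, WT 3 or KO 1, and they are left out of its counts there; without KO 2 this holds for Gzma. Of 190 estimates for the 10 genes under these alternatives 188 were below 0. Prf1 turned to 0.37 without WT 3, in edgeR and in DESeq2, and its edgeR estimates without 1 library ran from -0.82 to 0.37. Over all genes, total counts only gave 755 calls, DESeq2 1205 and library weights 582, against 385. Leaving out 1 library gave 0 to 349 calls in edgeR: 0 without WT 1, 10 without KO 3, 118 without WT 3 and 218 without KO 2. DESeq2 called 631 without WT 1, 984 without WT 2, 1356 without WT 3, 1258 without KO 1, 869 without KO 2 and 371 without KO 3. Of the other list genes, 187 as listed and not all tested, edgeR called 11, which were 9 smooth muscle genes higher and 2 cardiomyocyte genes lower. These calls held 0 of the 76 further T and NK list genes in the count table and no other immune cell gene. DESeq2 called 27 (17 higher and 10 lower), 3 of them among those 76. Of the other list genes, robust edgeR called 5, and edgeR without 1 library 0 to 10. DESeq2 without 1 library called 16 (WT 1), 29 (WT 2), 20 (WT 3), 27 (KO 1), 22 (KO 2) and 8 (KO 3) of them. The log2 ratio of the summed CPM was -0.86, and ran from -1.17 (without WT 2) to -0.38 (without WT 3). The cause of these shifts was not tested. No paired analysis was possible because the labels give no replicate numbers shared between the groups. Granzyme and perforin genes are limited by counts of 4 to 30 per library.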
